A study of Mus musculus with 6 samples.

Results

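The genes described here are 9 members of the Bcl-2 family, the proteins that decide whether a cell opens the outer membrane of its mitochondria and dies by apoptosis. They comprise the anti-apoptotic members Bcl2, Bcl2l1 and Mcl1, the BH3-only members Bcl2l11, Bad, Bid, Bik and Bmf, and the effector Bak1. Members were found as the non-control probes whose gene name on the array, or whose current RefSeq symbol through the probe's accession, is 1 of these 9 names. All 9 genes were found, by 13 of the 55681 probes of the array. A probe was tested where it was well above background on all 3 arrays of normal liver or all 3 of tumor. This held for 12 of the 13 probes and for each of the 9 genes, among 18567 genes tested. The arrays held RNA of 3 normal livers and of 3 macroscopic liver tumors that carried a mutation of Ha-ras. All came from male C3H/HeN mice of 74 to 75 weeks, a strain whose males develop liver tumors spontaneously. The mice were F2 animals of the control arm of a project on gestational arsenic, and in that arm they had standard diet and tap water. The labels do not say whether the 3 samples of a group came from separate animals, so p-values measure only the spread between these samples. RNA was labelled with Cy3 and each sample was read on its own 1-color array.

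In healthy cells the anti-apoptotic proteins hold the effectors Bak and Bax in check on the mitochondrial membrane. BH3-only proteins sense stress, loss of growth factors or detachment, and either block the anti-apoptotic proteins or activate the effectors directly. The effectors then form pores, cytochrome c leaves the mitochondria, and caspases are activated. Hepatocytes are known to depend on Bcl-xL, the product of Bcl2l1, and on Mcl-1, and they need Bid to pass the death signal of Fas on to the mitochondria.

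The 75th percentile of the processed signal, to which each array was scaled, was 124 to 177 on the arrays of normal livers and 171 to 183 on those of tumors. The share of spots well above background was 44.7% to 48.9%, and 0 spots were saturated. The median local background was higher for normal livers, at 42 to 45, than for tumors, at 22 to 23, and its part in the values of probes dim in normal livers was not tested beyond the alternatives given. The 3 normal livers lay on 1 slide and the 3 tumors on another, so an effect of the slide cannot be told apart from one of the tissue. Expression values below are processed signals divided by that percentile, on a linear scale, and they rank arrays for 1 probe but not probes against each other. Of 6 hepatocyte markers, Alb, Hnf4a, Ttr, Apoc3 and Apoa1 were measured and were well above background on every array, Apoa1 was called higher in the tumors, and Tf had no probe under that name. Since whole tissue was used, fewer cells of a type and less RNA per cell cannot be told apart.

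Of the 9 members, 6 were called by limma at an adjusted p under 0.05, where 34.2% of all genes tested were called. Bcl2, Bcl2l1, Bcl2l11 and Bid were higher in the tumors, against 13.1% of all genes. The probe of Bcl2l11 met the limit for testing through the tumors alone. Bik and Bmf were lower, against 21.0% of all genes. Mcl1, Bad and Bak1 were not called. The calls did not follow the division into anti-apoptotic and pro-apoptotic proteins. Both groups of functions had members that rose, and the BH3-only members were divided, with 2 higher, 2 lower and 1 not called. A change of 2-fold or more with a call was seen in 4 members, namely Bcl2, Bcl2l11, Bik and Bmf, and in 14.6% of all genes. With normexp background correction, which adds an offset of 50 to every corrected signal, none of these 4 reached 2-fold, with log2 fold changes of 0.86 for Bcl2, 0.42 for Bcl2l11, -0.98 for Bik and -0.90 for Bmf. The groups did not overlap in 6 members, as in 51.8% of all genes tested. The median log2 fold change of the 9 members was 0.09, beside -0.13 over all genes. Of the 6 arrays, leaving out normal liver 2 moved these counts most. Without it limma called 3871 genes in place of 6346, and 2 members, Bcl2 and Bcl2l1.

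**Figure D1:**
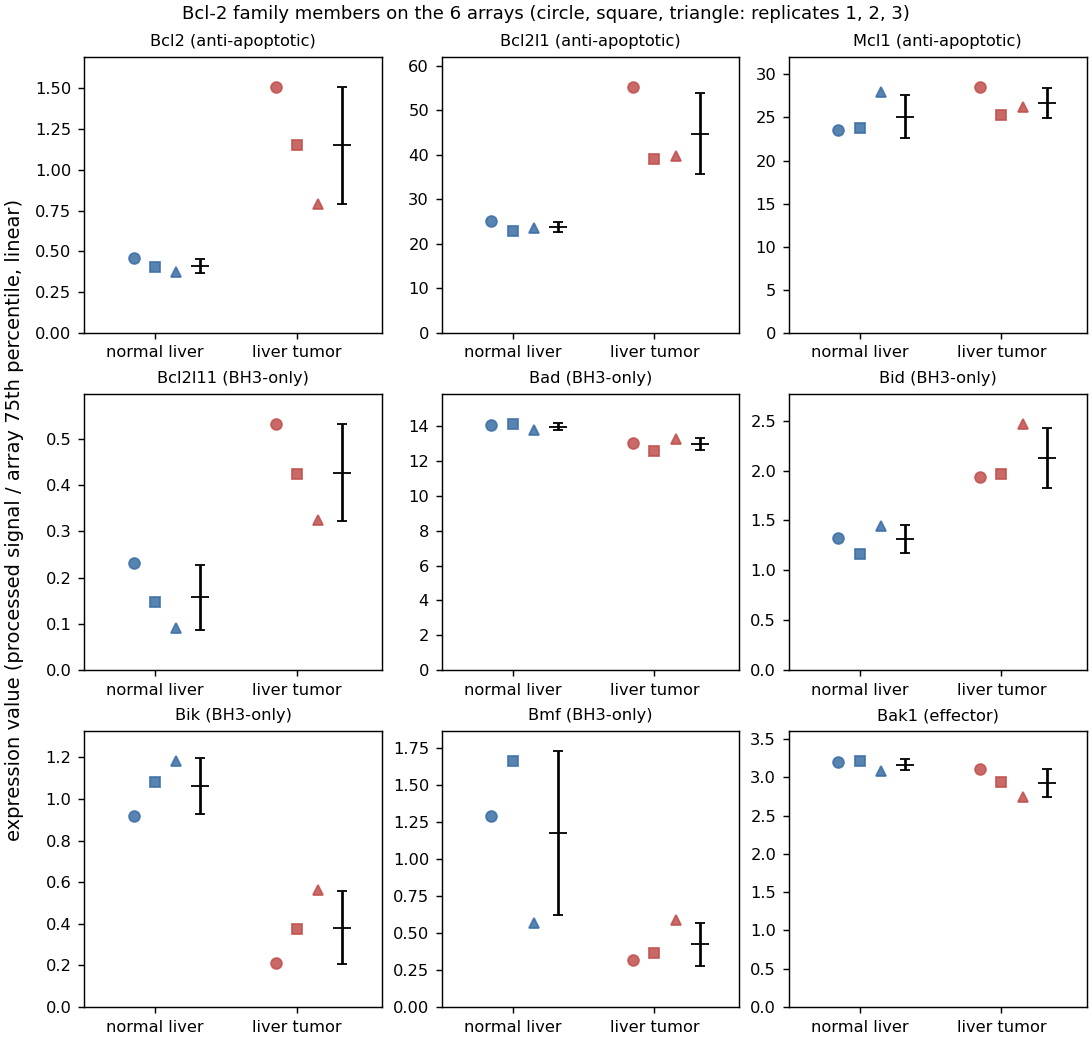
Expression value of each member on the 6 arrays, on linear axes that start at 0, with circles, squares and triangles for replicates 1, 2 and 3 and black bars for the mean ± SD of 3 arrays. The 3 tumors lie above the 3 normal livers for Bcl2, Bcl2l1, Bcl2l11 and Bid, and below them for Bik and, by a small margin, Bad. For Bmf, tumor 3 at 0.591 is above normal liver 3 at 0.570.

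Bcl2 is the founding member of the family and blocks the effectors. Bcl2 was expressed at 0.457, 0.405 and 0.371 in normal livers 1, 2 and 3, and at 1.51, 1.15 and 0.793 in tumors 1, 2 and 3. All tumors were higher than all normal livers, and tumor 1 was the highest. The mean rose from 0.411 ± 0.0431 to 1.15 ± 0.36 (SD, n = 3 each), a log2 fold change of 1.44 (limma, standard error 0.24, adjusted p = 0.00678). Tumor 1 was 1.90 times tumor 3, and the log2 fold change lay between 1.22 and 1.69 with any 1 array left out, each time with a call. With normexp background correction it was 0.86 (limma, adjusted p = 0.00671).

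Bcl2l1 encodes Bcl-xL, and its main transcript gives the anti-apoptotic form. It had a pair of tested probes, shown by the first 30 of their 60 bases, as the scanner file gives them, because they measure the same gene at different sites.
Bcl2l1, probe A_55_P1974877: atagtttgtgtgaaggtgaaagtgcagttc
Bcl2l1, probe A_52_P510877: attggtgagtcggattgcaagttggatggc
By the brighter probe, A_55_P1974877, Bcl2l1 read 25.2, 22.9 and 23.5 in the normal livers and 55.4, 39.2 and 39.8 in the tumors. The tumors were again all above the normal livers, with tumor 1 the highest and the other tumors close to each other. The mean was 23.8 ± 1.2 in normal livers and 44.8 ± 9.2 in tumors (SD, n = 3 each). The log2 fold change was 0.89 (limma, standard error 0.16, adjusted p = 0.00888), just under 2-fold. The second probe gave a log2 fold change of 1.04 (limma, standard error 0.16, adjusted p = 0.00515), so both probes placed the gene higher in the tumors. With any 1 array left out the log2 fold change of the brighter probe lay between 0.73 and 0.98, each time with a call. Which splice form each probe detects was not analysed here.

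Mcl1 encodes a short-lived anti-apoptotic protein. Its values were 23.6, 23.8 and 28.0 in the normal livers and 28.6, 25.3 and 26.2 in the tumors. The groups overlapped. The log2 fold change was 0.09 with a 95% interval from -0.20 to 0.38 (limma, adjusted p = 0.605), and the second probe gave 0.07 (limma, adjusted p = 0.742). The interval does not reach the changes of Bcl2 or Bcl2l1. As a description of pairs chosen after their values were seen, the log2 difference of Bcl2 from Mcl1, each set to its own mean in normal livers, was 1.69, 1.48 and 0.89 in tumors 1, 2 and 3, and that of Bcl2l1 from Mcl1 was 1.02, 0.70 and 0.68.

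Bcl2l11, which encodes Bim, and Bid were the BH3-only members that rose. Bim binds every anti-apoptotic member and can activate the effectors, and Bid does so after it is cut by caspase-8. Both are shown by the first 30 bases of the probe that measured them.
Bcl2l11, probe A_51_P484880: ggatcggagacgagttcaacgaaacttaca
Bid, probe A_52_P574653: ctctttccctgggtaacatcacagaagatt
Bcl2l11 was at 0.232, 0.148 and 0.0911 in the normal livers and at 0.533, 0.424 and 0.324 in the tumors. Each tumor was higher than each normal liver, and normal liver 3 and tumor 3 were the lowest of their groups. The means were 0.157 ± 0.071 and 0.427 ± 0.105 (SD, n = 3 each), and the log2 fold change was 1.52 (limma, standard error 0.36, adjusted p = 0.0207). The signal was dim. The probe was well above background in 2 of 3 normal livers, with normal liver 3 below that limit, so it was tested through the tumors alone. The second probe, A_52_P348214, was too dim on each array. With normexp background correction the log2 fold change was 0.42 (limma, adjusted p = 0.0822). The call was also lost without normal liver 2 (1.53, limma's adjusted p = 0.0615), without tumor 1 (1.34, adjusted p = 0.0569) and without tumor 2 (1.51, adjusted p = 0.0569).

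Bid read 1.33, 1.17 and 1.44 in the normal livers and 1.94, 1.97 and 2.47 in the tumors. No tumor came down to the normal range, and here tumor 3 was the highest. The mean rose from 1.31 ± 0.14 to 2.13 ± 0.30 (SD, n = 3 each), with a log2 fold change of 0.69 (limma, standard error 0.15, adjusted p = 0.0150). Without normal liver 2 the log2 fold change was 0.61 and the call was lost (limma, adjusted p = 0.0557).

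Bik and Bmf were the members that fell. Bik is a BH3-only protein of the endoplasmic reticulum, and Bmf is held at the actin and myosin cytoskeleton until detachment releases it. The first 30 bases of their probes were as follows.
Bik, probe A_51_P117794: ttttcaggagcttgattcgaagcctcacca
Bmf, probe A_55_P2029106: catgtgtaaatatcctctcatccatcaagt
Bik was at 0.916, 1.08 and 1.18 in the normal livers and at 0.210, 0.374 and 0.560 in the tumors. All tumors lay below all normal livers, and tumor 1 was the lowest. The mean fell from 1.06 ± 0.13 to 0.381 ± 0.175 (SD, n = 3 each), a log2 fold change of -1.58 (limma, standard error 0.35, adjusted p = 0.0162). The call was lost without normal liver 2 (-1.56, limma's adjusted p = 0.0540) and without normal liver 3 (-1.50, adjusted p = 0.0536).

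Bmf was at 1.29, 1.67 and 0.570 in the normal livers and at 0.317, 0.363 and 0.591 in the tumors. Normal liver 3 lay within the range of the tumors, below tumor 3, so the groups overlapped. The means were 1.18 ± 0.56 and 0.424 ± 0.146 (SD, n = 3 each), and the log2 fold change was -1.39 (limma, standard error 0.43, adjusted p = 0.0496). This call was the weakest of the 6. It was lost without normal liver 1 (-1.25, limma's adjusted p = 0.134), normal liver 2 (-1.07, adjusted p = 0.134), tumor 1 (-1.21, adjusted p = 0.125), tumor 2 (-1.31, adjusted p = 0.125) or tumor 3 (-1.66, adjusted p = 0.0508). Without normal liver 3 the log2 fold change was -1.84 and the gene was called (limma, adjusted p = 0.0162).

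Bad and Bak1 were not called. Bad is a BH3-only protein that survival kinases keep inactive by phosphorylation, which RNA does not show. It read 14.1, 14.2 and 13.8 in the normal livers and 13.0, 12.6 and 13.3 in the tumors. The tumors were all lower, by a small margin, and the log2 fold change was -0.11 with a 95% interval from -0.34 to 0.12 (limma, adjusted p = 0.418). Its second probe gave -0.21 (limma, adjusted p = 0.183). The sign of the change of Bad depended on the scaling, with 0.069 under scaling by spike-in controls, which are RNAs added to every sample before labelling.

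Bak1, the effector among the members, read 3.20, 3.22 and 3.09 in the normal livers and 3.11, 2.94 and 2.75 in the tumors. Tumor 1 lay within the normal range and the groups overlapped. The log2 fold change was -0.11, with a 95% interval from -0.36 to 0.14 (limma, adjusted p = 0.440), and 0.066 under scaling by spike-in controls. For Bad and Bak1 the intervals exclude a change of 2-fold in either direction. For single members an exact permutation test over the samples, two-sided, gave p = 0.1 where the groups did not overlap, the smallest that 3 against 3 arrays allow.

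**Figure D2:**
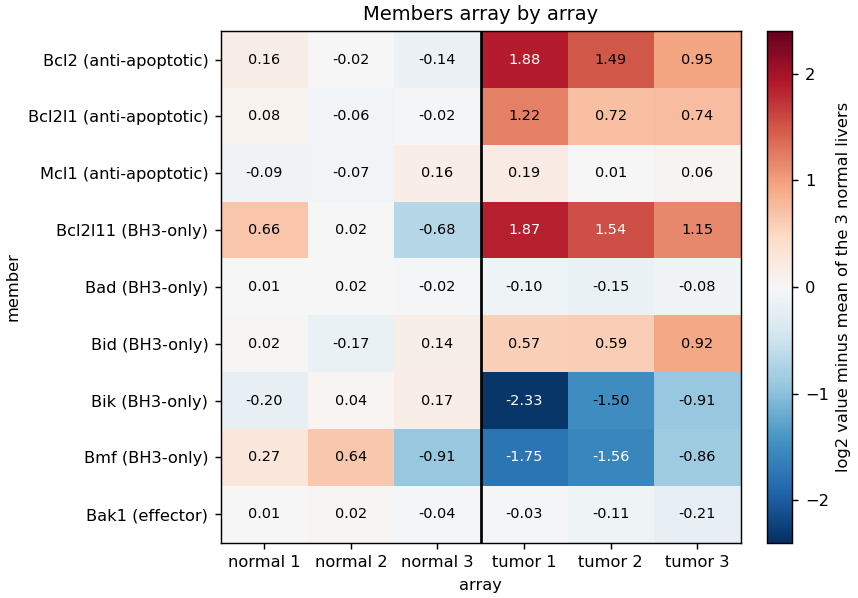
Log2 value of each member on each array minus its mean over the 3 normal livers, with members from top to bottom and arrays from left to right, red for higher and blue for lower. Bik is lowest in tumor 1, at -2.33, and Bcl2 highest in tumor 1, at 1.88, while Bad and Bak1 stay between -0.21 and 0.02.

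Set side by side on the log2 scale, each gene relative to its mean in normal livers, the median of the anti-apoptotic members was 1.22, 0.72 and 0.74 in tumors 1, 2 and 3. With 3 members this median was the value of Bcl2l1 in each tumor, while Mcl1 was at 0.19, 0.01 and 0.06. The median of the pro-apoptotic members was -0.06, -0.13 and -0.14. That median covers opposite changes. From the highest to the lowest of the 6 pro-apoptotic members the range was 4.20 in tumor 1 and 2.06 in tumor 3, with tumor 2 between them, and 0.80 to 1.07 in the normal livers. Tumor 1 was the farthest from the normal livers for Bcl2, Bcl2l1, Bcl2l11, Bik and Bmf. It was the highest tumor for the first 3 of these and the lowest for Bik and Bmf. Tumor 3 was the nearest to the normal livers for Bcl2, Bcl2l11, Bik and Bmf, but the farthest for Bid. In the pair of Bcl2l11 and Bmf, chosen after the values were seen, the log2 difference was largest in tumor 1, at 3.62, and positive in all tumors, against -0.62 to 0.39 in the normal livers. With the study's limits for a change, namely 2-fold or more between means, at least 1 mean above 1.0 and p under 0.05, and the methods' t-test in its unpaired form, Bcl2 qualified with a ratio of 2.80 and Bik with 0.359. Bcl2l11 did not because its higher mean was 0.427, Bmf because of its p, and Bcl2l1 and Bid because of the size of the ratio. In the paired form by replicate number, which the study's statistics section names, the p of Bcl2 in the methods' t-test was 0.0557, so Bcl2 did not qualify, and that of Bik was 0.00170.

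Promoter sequence, 250 bases before the annotated start, was available from RefSeq (GRCm38.p6) for 8 members with 14 starts, and not for Bik. The outermost starts of Bcl2, Bcl2l11 and Bmf are printed, the members with a promoter entry that were called with a change of 2-fold or more. Capitals mark 3 motifs, each searched on both strands. The GC box is spelled GGGCGG. The CCAAT box is spelled as its name. The FOXO motif is spelled TGTTTAC. None of these shares letters with another in the promoters shown.
Bcl2, chr1:106714291-106714540, minus strand: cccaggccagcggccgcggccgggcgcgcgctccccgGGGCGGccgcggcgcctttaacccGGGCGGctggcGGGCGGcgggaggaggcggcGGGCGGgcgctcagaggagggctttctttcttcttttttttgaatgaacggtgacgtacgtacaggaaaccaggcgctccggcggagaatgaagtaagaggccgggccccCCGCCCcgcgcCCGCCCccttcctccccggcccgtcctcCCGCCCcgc
Bcl2l11, chr2:128125788-128126037, plus strand: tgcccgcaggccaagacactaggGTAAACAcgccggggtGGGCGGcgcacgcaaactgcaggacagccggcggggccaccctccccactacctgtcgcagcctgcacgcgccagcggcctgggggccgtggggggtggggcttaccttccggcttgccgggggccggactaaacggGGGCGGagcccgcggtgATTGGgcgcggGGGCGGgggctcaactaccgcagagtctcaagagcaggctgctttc
Bmf, chr2:118549687-118549936, minus strand: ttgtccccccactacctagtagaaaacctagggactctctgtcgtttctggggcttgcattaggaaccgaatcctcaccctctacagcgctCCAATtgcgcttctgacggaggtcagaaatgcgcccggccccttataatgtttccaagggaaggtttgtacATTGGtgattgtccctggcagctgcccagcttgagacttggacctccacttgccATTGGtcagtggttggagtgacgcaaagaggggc
The Bcl2 promoter had 74.8% GC, 36 CpG and 7 GC boxes. A CpG count this high or higher was found in 2.58% of 32851 promoters, whose median was 6 CpG and 52.4% GC. The Bcl2l11 promoter shown had 72% GC, 24 CpG, 3 GC boxes, 1 CCAAT box and 1 FOXO motif. The other annotated start of Bcl2l11 had 2 GC boxes, 2 CCAAT boxes and no FOXO motif. The Bmf promoter shown had 54% GC, 8 CpG and 3 CCAAT boxes, and no GC box was among its letters. The other starts of Bmf had 0 and 1 CCAAT boxes. At least 1 match was found in 32.7% of all promoters for the GC box, in 33.8% for the CCAAT box and in 3.17% for the FOXO motif. Base composition did not separate the members that rose from the one that fell, since the 3 annotated starts of Bcl2l1, which rose, had 47.6% to 53.2% GC. These matches are a description of the sequence, and no methylation or binding was analysed here.

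Of 17 other genes of the family, 15 had a probe under their name and 11 were tested. Bax, Bok and Bcl2l14 were higher in the tumors, Bcl2l13 was lower and 7 were not called, with a median log2 fold change of 0.01. Of all genes tested, 34.2% were called, 13.1% higher and 21.0% lower. Bax, the effector that works in parallel with Bak1, read 8.03, 8.05 and 7.70 in the normal livers and 16.1, 17.1 and 12.8 in the tumors, so that all tumors were higher. Its log2 fold change was 0.94 (limma, standard error 0.14, adjusted p = 0.00474), while that of Bak1 was -0.11. Bok, a relative of both effectors, rose from 4.98 ± 0.92 to 9.45 ± 0.83 (SD, n = 3 each), by 0.94 on the log2 scale (limma, standard error 0.16, adjusted p = 0.00722). In the pair of Bcl2l1 and Bax, also chosen after the values were seen, the log2 difference was 0.19, -0.40 and 0.05 in tumors 1, 2 and 3, so that neither moved ahead of the other in all tumors.

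Bcl2l14, which encodes Bcl-G, did not stand well above background in the normal livers, at 0.0433, 0.0630 and 0.111, and it read 2.32, 1.31 and 2.68 in the tumors. Every tumor was well above background. Its fold is therefore a bound. As the level of a normal liver, the probe's own signal was used, or the lowest signal of any probe above background on that array where this was higher. By this bound Bcl2l14 was higher by at least 17.5-fold, and by its second probe by at least 2.69-fold. The bounds were not tested. The adjusted p-values of limma, 0.000667 and 0.00144, belong to the fitted log2 fold changes of 4.91 and 3.26, which use the dim signals of the normal livers. Both probes passed the filter through the tumors alone. These bounds hold for the processed signal, and with normexp background correction the fitted log2 fold change of the first probe was 2.21. Bcl2l13, a mitochondrial relative, fell by 0.59 on the log2 scale (limma, standard error 0.11, adjusted p = 0.00952), from 8.09 ± 0.48 to 5.37 ± 0.33 (SD, n = 3 each). With spike-in scaling its fall was 0.41 on the log2 scale and was not called (limma, log2 fold change -0.41, adjusted p = 0.276).

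Among the uncalled relatives, the p53 target Bbc3, which encodes Puma, had a log2 fold change of 0.41 with a 95% interval from -0.46 to 1.28. The anti-apoptotic Bcl2l2 had 0.01 (-0.30 to 0.32), and Bcl2a1d, whose probe may also detect its near-identical copies, had 0.40 (-0.63 to 1.43). The mitophagy receptors Bnip3 and Bnip3l had -0.61 (-1.23 to 0.01) and -0.03 (-0.34 to 0.28). Bcl2l12 had -0.48 (-0.87 to -0.09), with groups that did not overlap (limma, adjusted p = 0.0634), and Bcl2l15 had -0.21 (-0.58 to 0.15). Without tumor 3 limma called Bcl2a1d (0.91, adjusted p = 0.0295), Bnip3 (-0.86, adjusted p = 0.0312) and Bcl2l12 (-0.63, adjusted p = 0.0274). The BH3-only genes Pmaip1 and Hrk and the genes Bcl2a1c and Bcl2l10 were too dim to be tested, and Bcl2a1a and Bcl2a1b had no probe under their name.

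**Figure D3:**
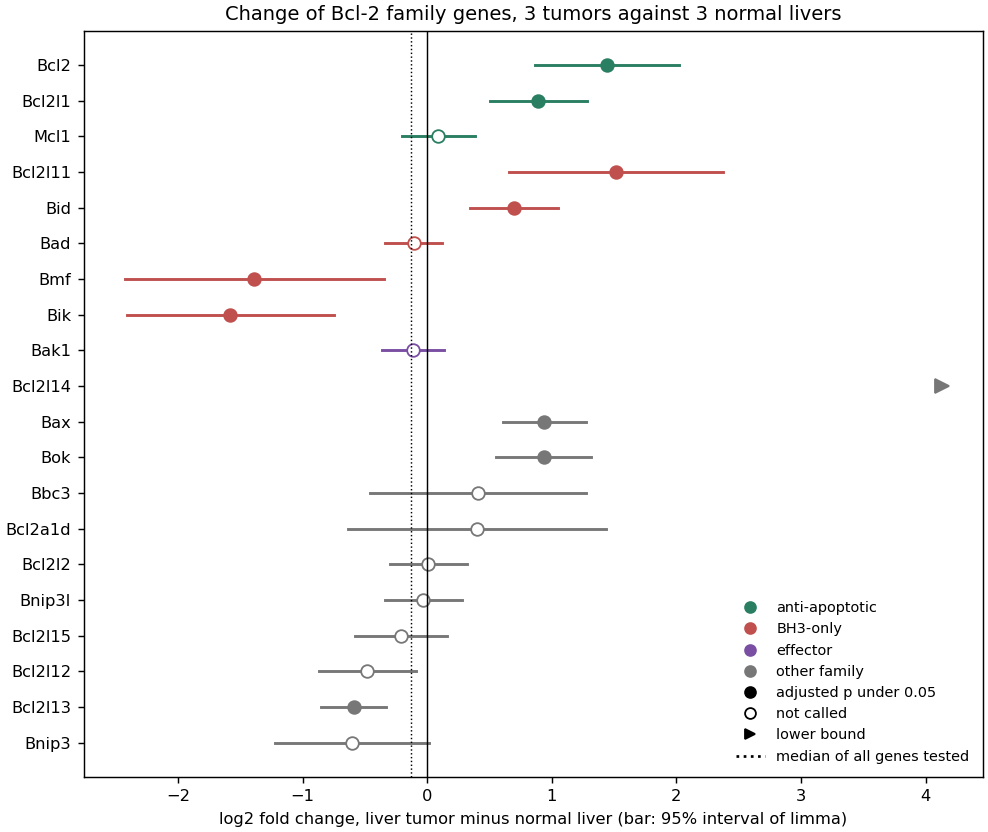
Log2 fold change, liver tumor minus normal liver, of the 9 members and the 11 other family genes tested, with 95% intervals of limma, filled symbols for adjusted p under 0.05 and a dotted line at the median of all genes, -0.13. Bcl2l14 is drawn as a triangle at its lower bound, 4.13 on the log2 scale, since its probe was dim in all normal livers.

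The wider apoptosis pathway was described by 5 further lists of partners, regulators and targets. Together with the other family genes they held 72 genes, of which 64 were tested, 9 were higher, 12 lower and 43 not called. The 21 called of 64 stand beside 34.2% of all genes called, 13.1% higher and 21.0% lower. Without normal liver 2 limma called 11 of them in place of 21, and with spike-in scaling 12. Their median log2 fold change was -0.10, beside -0.13 over all genes. Downstream of the members, 12 genes of the apoptosome, the caspases and the released mitochondrial proteins were tested, with a median of -0.07. Cycs, which encodes cytochrome c, had -0.75 (limma, adjusted p = 0.0172), and Aifm1 had -0.63 (limma, adjusted p = 0.0158). Without normal liver 2 the calls of Cycs (adjusted p = 0.0562) and Aifm1 (0.0609) in limma were lost. That of Cycs was also lost without normal liver 1 (adjusted p = 0.0501) or normal liver 3 (0.0532). With spike-in scaling Cycs (-0.58) and Aifm1 (-0.45) kept the direction and were not called.

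Of 5 inhibitor of apoptosis genes tested, Birc5, which encodes survivin and also serves cell division, was higher by 3.51 on the log2 scale (limma, adjusted p = 0.000932). Xiap, which binds active caspases, had a log2 fold change of -0.61 (limma, adjusted p = 0.0169), a call that was lost without normal liver 2 (adjusted p = 0.0603) and with spike-in scaling (-0.43). Of 8 death receptor genes tested, 2 were higher and 3 lower, beside 13.1% and 21.0% of all genes. Tnfrsf10b, the receptor of TRAIL, was also too dim in all normal livers, read 3.61, 2.69 and 2.08 in the tumors, and by the same bound rose at least 24.0-fold. Its probe passed the filter through the tumors alone. The adjusted p of Tnfrsf10b in limma, 0.000433, belongs to the fitted log2 fold change of 5.61, not to the bound. With normexp its fitted log2 fold change was 2.61, below that bound of 4.58 on the log2 scale. Its ligand Tnfsf10 had a log2 fold change of -1.12 (limma, adjusted p = 0.0134). The caspase-8 inhibitor Cflar had -0.89 (limma, adjusted p = 0.00605), and Tnfrsf1a, the receptor of TNF, had 0.81 (limma, adjusted p = 0.00518). Fas, the fifth called gene of this list, had -0.55 (limma, adjusted p = 0.0308) and falls outside the rule for named genes.

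Of 16 genes for protein partners, kinases and turnover factors of the members, 1 was higher and 3 were lower, with a median of -0.23. Of all genes, 13.1% were higher and 21.0% lower. Fbxw7, part of a ubiquitin ligase that marks Mcl-1 for degradation, had 0.97 (limma, adjusted p = 0.0179). Dynll2, the dynein light chain that binds Bmf, had -0.74 (limma, adjusted p = 0.0205), Vdac1 had -0.48 (limma, adjusted p = 0.0350) and Akt2, a kinase of the survival pathway, had -0.46 (limma, adjusted p = 0.0275). Of 12 transcription factors that act on the members, E2f1 had 0.91 (limma, adjusted p = 0.0274) and Stat5b had -0.78 (limma, adjusted p = 0.0161). Foxo3 and Trp53, known regulators of Bcl2l11, Bax and Bbc3, were among the 10 that were not called, with -0.51 (-1.44 to 0.42) and 0.34 (0.05 to 0.62). Of these calls, limma lost that of Fbxw7 without normal liver 1 (adjusted p = 0.0515), 2 (0.0506), 3 (0.0581) or tumor 2 (0.0551), that of Dynll2 without normal liver 1 (0.0644) or 2 (0.0656), and that of Stat5b without normal liver 2 (0.0544). Vdac1 lost its call without normal liver 2 (0.110), 3 (0.0979), tumor 1 (0.0914) or tumor 2 (0.0921), Akt2 without any array but tumor 3 (0.0559 to 0.0829), and E2f1 without normal liver 1 (0.0820), 3 (0.0720), tumor 2 (0.0815) or tumor 3 (0.0625). With spike-in scaling limma did not call Dynll2 (-0.56, adjusted p = 0.141), Stat5b (-0.60, 0.127), Vdac1 (-0.30, 0.454) or Akt2 (-0.28, 0.451). Quantile normalization also lost Vdac1 (-0.22, limma's adjusted p = 0.170) and Akt2 (-0.28, 0.0895), and normexp lost Vdac1 (-0.44, 0.0547).

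**Figure D4:**
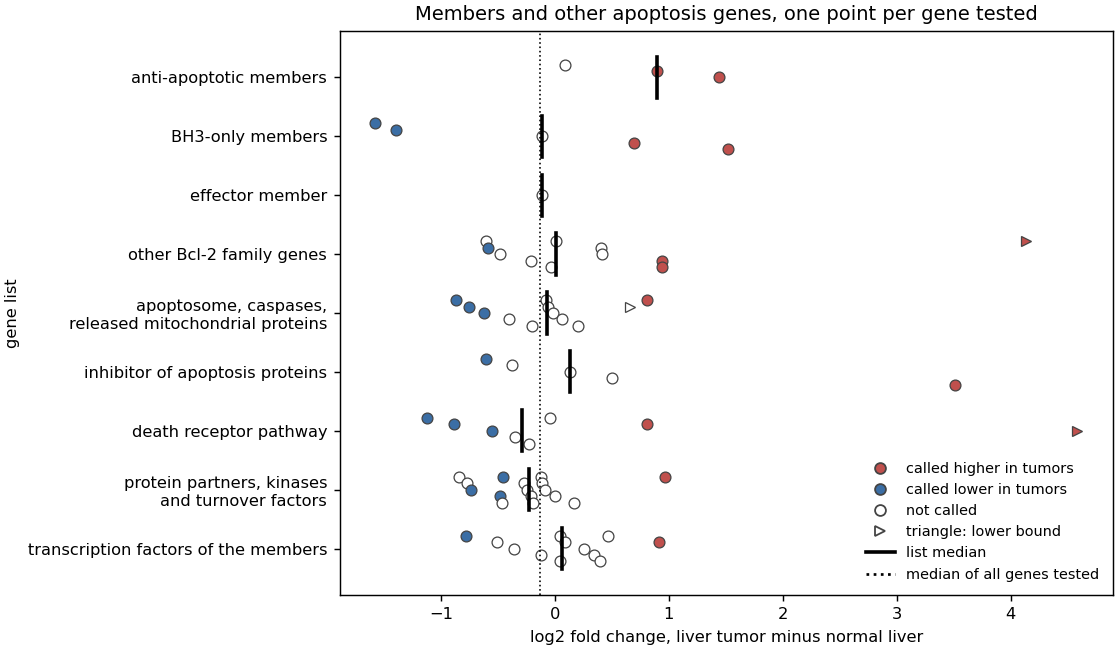
Log2 fold change, liver tumor minus normal liver, of each tested gene in the 3 lists of members and 6 lists of other apoptosis genes, red for called higher, blue for called lower, white for not called, triangles for lower bounds and black bars for list medians. The medians of the 6 other lists lie between -0.29 and 0.13, near the dotted median of all genes at -0.13. That of the 3 anti-apoptotic members is 0.89, which is the value of Bcl2l1, with Mcl1 at 0.09.

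Markers of other cells in the tissue also differed. Their counts stand beside 13.1% of all genes called higher and 21.0% called lower. Macrophage markers were called lower for 4 of 6 genes, and their summed expression value was 83.5 to 150.0 in normal livers and 44.3 to 74.8 in tumors. Sums like this follow the brightest probes and do not measure the amount of a cell type. The macrophage sums are mostly Csf1r, at 32.4 to 42.3 in normal livers, and Cd5l, at 27.5 to 56.4. In tumors these were at 18.4 to 25.5 and 14.3 to 26.0. Of 6 markers of stellate cells and fibroblasts 4 were lower and Col1a1 was higher, with sums of 80.8 to 99.8 and 22.6 to 42.5. These sums are mostly Dcn, at 75.8 to 96.4 in normal livers and 17.8 to 37.7 in tumors. The part of macrophages, stellate cells and fibroblasts in the falls of Bik and Bmf was not tested. Genes of proliferating cells were higher for 5 of 5, with sums of 0.452 to 0.557 in normal livers and 5.36 to 9.15 in tumors. Top2a, Ccnb1 and Bub1 were too dim on all 3 arrays of normal liver, and Cdk1 passed on 1 of 3. These genes were tested through the tumors alone, and the sums of normal livers include their dim signals. By the bound used for Bcl2l14, the rises were at least 4.28-fold for Top2a, 14.9-fold for Ccnb1 and 1.87-fold for Bub1. The part of proliferating cells in the rises of Bcl2, Bcl2l1, Bcl2l11 and Bid was not tested. Bcl2 and Bcl2l11 are also known to be expressed in lymphocytes. Of 9 lymphocyte markers, Cd3d, Cd3g, Cd8a and Ms4a1 were among those too dim to be tested. Cd3e overlapped between the groups, with 5.96 to 7.73 in normal livers and 5.83 to 7.72 in tumors. The B cell gene Cd79a was at 0.155 to 0.319 in normal livers and 0.348 to 0.401 in tumors, without overlap, with a log2 fold change of 0.80 that was not called (limma, adjusted p = 0.0565). The B cell gene Cd79b overlapped, with 0.705 to 0.998 in normal livers and 0.763 to 0.952 in tumors. Its log2 fold change was 0.03 (limma, adjusted p = 0.907). In limma 2 of the 4 lymphocyte markers tested had an unadjusted p under 0.05. The part of lymphocytes in the rises of Bcl2 and Bcl2l11 was not tested. Cd4 was the 1 called gene of this list, and its probes disagreed. Its brightest probe gave a log2 fold change of 1.59 and another gave -0.48. The summed value of this list, 66.3 to 70.2 and 141 to 245, is mostly that probe. Of 5 endothelial markers 1 was lower, with sums of 54.0 to 66.0 and 45.5 to 50.5 that are mostly Stab2 and Kdr. Of 4 neutrophil markers tested, with sums of 146 to 167 and 129 to 180.0, limma called 0, while 1 had an unadjusted p under 0.05 in limma and 0 in the methods' t-test. The neutrophil sums are mostly Csf3r, at 141 to 159 in normal livers and 124 to 173 in tumors. Of 3 cholangiocyte markers tested, with sums of 1.45 to 1.90 and 1.10 to 1.32, limma called 0, and 0 had an unadjusted p under 0.05 in limma or in the methods' t-test.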

How the data were processed

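Total RNA of 3 normal livers and 3 liver tumors was read on SurePrint G3 Mouse GE arrays, 1 array for each of the 6 samples. For every array the authors deposited scanner output of Feature Extraction (10.7.3.1 in the file headers, 12.0.3.1 per the labels). Its processed signal is an intensity after background subtraction and spatial detrending. The authors also deposited a table in which that signal is a ratio to the 75th percentile of the array on a linear scale. From the deposited intensities, log2 values were formed and each array's log2 75th percentile over all spots was subtracted. Control spots and outlier spots were removed and spots of a probe averaged. Of the probes, 24901 stood well above background on every array of a group. These were tested with limma 3.58.1 (functions lmFit and eBayes, in R 4.3.3). Tests were two-sided, p-values were adjusted by Benjamini-Hochberg over all of these probes, and the threshold was 0.05. The brightest probe by mean log2 signal stood for its gene. Probe names came from RefSeq (GRCm38.p6) through the accession for 27229 probes, the symbol for 3586 and a synonym for 565, and the array's own name was kept for 24301. Tables were made with pandas 2.3.3 and numpy 2.4.6 in Python 3.11.15, exact tests with scipy 1.17.1 and figures with matplotlib 3.10.9.

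The members, the other lists and the tests were chosen with earlier results of these data known. Genes named are all members, every tested gene of the other family list, up to 4 called genes with the largest change in each further apoptosis list, and defining markers of other cells. A few genes that this rule names, and 1 probe sequence, are not reported here. The methods' t-test was run on linear values, unpaired and paired by replicate number. Other alternatives were normexp with an offset of 50, quantile normalization, spike-in scaling over 8 probes, no filter, a stricter filter, the deposited ratios, a replicate block, a trend in eBayes, the mean of a gene's probes, and leaving out each array. The number of arrays limits the precision. In a simulated comparison of 3 against 3 arrays over 24889 probes, 67 probes were changed 2-fold, 67 were changed 4-fold and 66 were changed 8-fold. The fit called 49.3%, 85.1% and 93.9% of these, with 5 false calls. In the data 8239 of 24901 probes were called, a far larger share, and adjusted p-values depend on that share. The simulated rates are therefore not those of this comparison.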

Additional observations from a re-analysis of the deposited data

How the results depend on the processing

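Bcl2 and Bcl2l1 were called with each array left out and in every limma alternative. The direction of all 6 called members was the same in every alternative and with each array left out. Alternatives without a call were, for Bcl2l11, normexp (0.42) and no filter (1.52), and for Bmf quantile normalization (-1.40), no filter (-1.39) and the unadjusted methods' t-test (-1.47), while Bid (0.69) and Bik (-1.58) lost theirs with no filter, where more probes were tested. The stricter filter left out Bcl2l11. Adjusted by Benjamini-Hochberg, the unpaired methods' t-test called 4135 genes and 1 member, Bik, and missed Bcl2 (1.49), Bcl2l1 (0.91), Bcl2l11 (1.45), Bid (0.70) and Bmf (-1.47). Unadjusted, it also called Bad (-0.11). Bad turned to 0.00935 with normexp, 0.000865 with quantile normalization and 0.0689 with spike-in scaling, Bak1 to 0.0660 with spike-in scaling, Bcl2l2 to -0.000143 with normexp, and Bnip3l to 0.0665 with normexp, 0.13 with quantile normalization and 0.15 with spike-in scaling. The cause was not tested. Genes called were 6346, of which 38.5% were higher, 4003 (62.4% higher) with spike-in scaling, which moved the median of all genes from -0.13 to 0.05, and 3501 with no filter, which called 2 members and 8 of the other apoptosis genes. Spike-in scaling called 12 of those in place of 21. With 1 array left out, limma called 3871 to 5471 genes, 2 to 5 members and 11 to 25 other apoptosis genes, and the log2 fold changes were 1.22 to 1.69 for Bcl2, 0.73 to 0.98 for Bcl2l1, 0.04 to 0.17 for Mcl1, 1.18 to 1.85 for Bcl2l11, -0.13 to -0.09 for Bad, 0.58 to 0.77 for Bid, -1.91 to -1.21 for Bik, -1.84 to -1.07 for Bmf, -0.16 to -0.07 for Bak1, -0.0821 to 0.0681 for Bcl2l2 and -0.11 to 0.0259 for Bnip3l. The dim signal of Bcl2l11 limits its values.

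The labels number the replicates in both groups. Deviations of arrays of the same number had correlations of 0.07, 0.13 and 0.05 over probes, and those of different numbers had -0.139 to 0.055. With 3 arrays per group these values cannot settle whether the numbers mark pairs. In the main fit the numbers were not taken as pairs. With the replicate block limma called 5417 genes and 5 members, without Bmf (-1.39, adjusted p = 0.0989). The methods' t-test in its paired form called 5767 genes unadjusted, among them 4 members, without Bcl2 (1.49) and Bmf (-1.47). After adjustment it called 0 genes, 0 members and 0 of the other apoptosis genes. Bcl2 (1.49), Bcl2l1 (0.91), Bcl2l11 (1.45), Bid (0.70), Bik (-1.48) and Bmf (-1.47) were then not called.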
